A study of Mus musculus with 9 samples.

Results

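Out of 15095 genes for which read counts of all 9 libraries were obtained, 8 that encode ATP-binding cassette (ABC) transporters known for the efflux of drugs and conjugates were chosen by gene symbol: *Abcc1*, *Abcc3*, *Abcc4*, *Abcc5*, *Abcb1a*, *Abcb1b*, *Abcg2* and *Abcb6*. The cells were neonatal rat ventricular myocytes (NRVMs), taken from Sprague-Dawley rats 1 to 2 days old. After 48 h in culture they were infected at a multiplicity of infection of 50, and RNA was collected 48 h after infection. The adenoviruses carried the coding region of LacZ (bacterial β-galactosidase, the control), mouse Nrf1 or mouse Nrf2 behind a CMV promoter, in a vector that also holds a red fluorescent protein, with 3 libraries in each of the 3 groups. GEO's organism field names the mouse, but the cells are from the rat and the authors aligned the reads to a rat genome.

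ABC transporters use the energy of ATP to move substrates across membranes. The ABCC proteins described here export organic anions, among them conjugates with glutathione, glucuronate or sulfate and, for some, cyclic nucleotides. P-glycoprotein exports many uncharged or positively charged drugs, anthracyclines among its known substrates, and the ABCG2 protein exports drugs, urate and porphyrins. Nrf1 and Nrf2 are related transcription factors that bind antioxidant response elements together with small Maf proteins, and enzymes of glutathione synthesis and conjugation are known targets of Nrf2. The comparisons address how the mRNA of each transporter differed between cells given Nrf1, Nrf2 or LacZ.

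The deposited tables hold the mean of each group, and the read counts of the single libraries were worked out from these means. Libraries are called a, b and c in each group, from the largest to the smallest total count, and cannot be tied to the replicate numbers of the samples. Total counts ranged from 7874461 to 11960378 per library. Levels below are normalized read counts, that is counts divided by a size factor set over all 9 libraries. Because counts were not divided by gene length, levels are compared between groups and not between genes. A gene was called higher or lower where limma gave an adjusted p under 0.05 and the fold change passed 1.5, a log2 fold change of 0.585. Nothing in the sources states that the libraries of a group came from separate cultures or animals, so the p-values measure the spread between these libraries, which may be technical.

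As a check of the labels, *Nfe2l2*, the gene of Nrf2, had 3472, 3399 and 3493 normalized counts in the LacZ libraries, 2815, 2894 and 2869 in the Nrf1 libraries, and 78772, 77443 and 67555 in the Nrf2 libraries. The libraries labelled Nrf2 were thus far above all others. The gene of Nrf1 was not analysed here, so the labels of the Nrf1 libraries were not checked in this way.

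**Figure D1:**
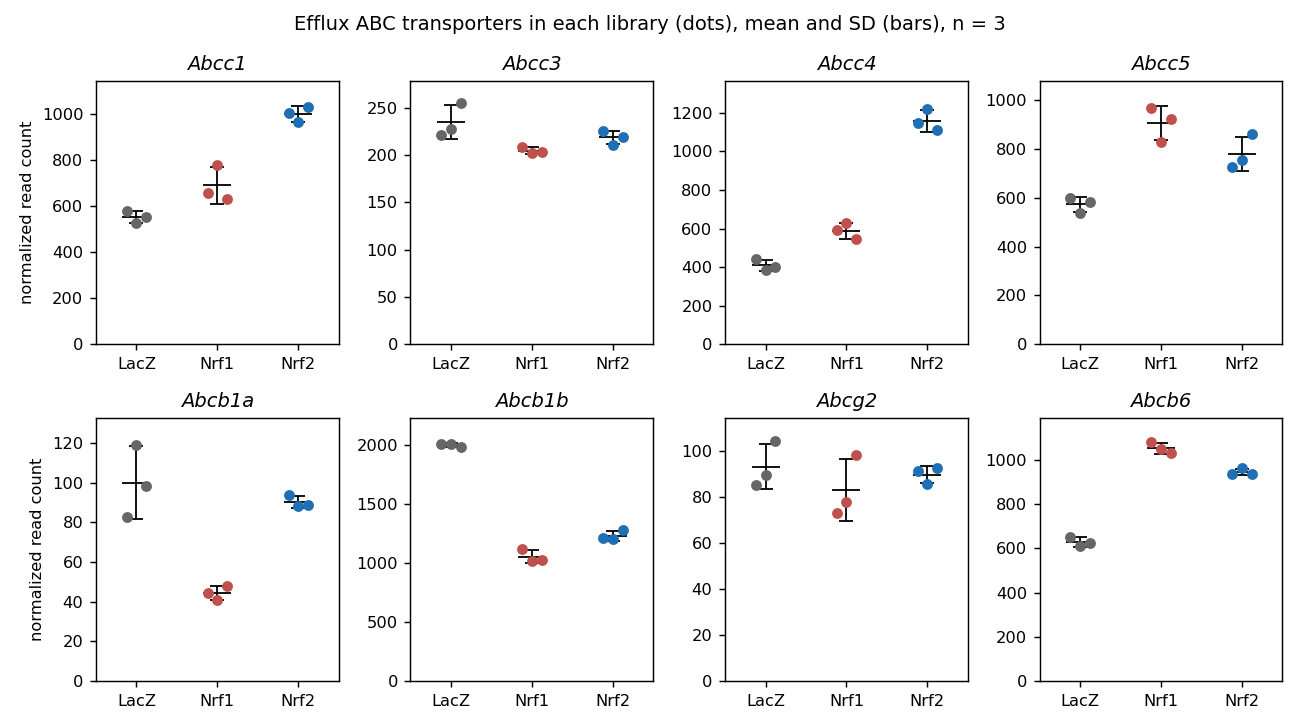
Normalized read counts (y axis, from 0) of the 8 transporters in each library of the LacZ, Nrf1 and Nrf2 groups, with dots for libraries and bars for the mean and SD of 3 libraries. *Abcc4* lay between 1109 and 1222 in the Nrf2 libraries and between 387 and 441 in the LacZ libraries, whereas *Abcb1b* was highest in the LacZ libraries.

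Among the exporters of organic anions, *Abcc4* had the largest difference from the control with Nrf2, and *Abcc5* with Nrf1. *Abcc4* encodes MRP4, which exports cyclic nucleotides and conjugates. *Abcc4* had 441, 387 and 399 normalized counts in the LacZ libraries, 593, 627 and 545 in the Nrf1 libraries, and 1146, 1222 and 1109 in the Nrf2 libraries. The groups were fully separated, with LacZ lowest and Nrf2 highest. With Nrf2 it rose 2.83-fold over LacZ, a log2 fold change of 1.5 (SE 0.06, limma adjusted p = 6.03e-11). With Nrf1 the log2 fold change over LacZ was 0.52 (SE 0.07, limma adjusted p = 6.73e-06), under the fold cutoff. Tested directly, *Abcc4* was 1.96-fold higher with Nrf2 than with Nrf1 (log2 fold change 0.97, SE 0.05, limma adjusted p = 3.03e-11).

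*Abcc1* encodes MRP1, an exporter of glutathione conjugates and of oxidized glutathione. Its normalized counts were 578, 525 and 550.0 in the LacZ libraries, 656, 778 and 631 in the Nrf1 libraries, and 1003, 962 and 1029 in the Nrf2 libraries. Again no library of a group reached the range of another group, and Nrf1 library b stood above the other Nrf1 libraries. *Abcc1* rose 1.81-fold with Nrf2 (log2 fold change 0.86, SE 0.05, limma adjusted p = 6.28e-09). With Nrf1 the log2 fold change was 0.31 (SE 0.07, limma adjusted p = 0.00125), under the fold cutoff. The direct comparison of Nrf2 with Nrf1 gave 0.54 (SE 0.06, limma adjusted p = 7.3e-07), also under the cutoff, and without Nrf1 library b the value was 0.63, past it.

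*Abcc5* encodes MRP5, known for the export of cyclic nucleotides and nucleotide analogs. It had 599, 539 and 583 normalized counts in the LacZ libraries, 967, 829 and 923 in the Nrf1 libraries, and 724, 756 and 859 in the Nrf2 libraries. Every library with Nrf1 or Nrf2 lay above all LacZ libraries, while the ranges of Nrf1 and Nrf2 overlapped. With Nrf1, *Abcc5* rose 1.57-fold (log2 fold change 0.65, SE 0.06, limma adjusted p = 1.75e-07). With Nrf2 the log2 fold change was 0.44 (SE 0.07, limma adjusted p = 6.1e-05), under the fold cutoff. Nrf2 over Nrf1 gave -0.22 (SE 0.06, limma adjusted p = 0.00539), a difference past the p cutoff but not the fold cutoff.

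*Abcc3* encodes MRP3, an exporter of glucuronides and bile salts best known from liver and gut. Its normalized counts were 221, 228 and 255 in the LacZ libraries, 208, 202 and 204 in the Nrf1 libraries, and 225, 211 and 219 in the Nrf2 libraries. The Nrf1 libraries were the lowest and lay outside the range of the LacZ libraries, and the ranges of Nrf2 and LacZ overlapped. In no comparison did it pass the cutoffs: the log2 fold change was -0.20 for Nrf1 over LacZ (95% confidence interval -0.38 to -0.02, limma adjusted p = 0.0514, and 0.0139 to 0.212 over the alternatives) and -0.10 for Nrf2 over LacZ (-0.28 to 0.08, limma adjusted p = 0.328), the latter -0.04 without LacZ library c. For Nrf2 over Nrf1 it was 0.09 (-0.07 to 0.25, limma adjusted p = 0.321).

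*Abcb1b* and *Abcb1a* are the rodent genes of P-glycoprotein, which in other species is encoded by a single gene. *Abcb1b* had 2003, 2008 and 1977 normalized counts in the LacZ libraries, 1113, 1019 and 1027 in the Nrf1 libraries, and 1208, 1199.5 and 1278 in the Nrf2 libraries. All LacZ libraries were above every other library, and the Nrf1 libraries were the lowest. *Abcb1b* fell with Nrf1 (log2 fold change -0.93, SE 0.04, limma adjusted p = 4.29e-11) and with Nrf2 (-0.70, SE 0.04, limma adjusted p = 3.88e-09). Between the factors, Nrf2 over Nrf1, the value was 0.22 (SE 0.04, limma adjusted p = 0.000301), under the fold cutoff.

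*Abcb1a* was measured at low depth, with 82, 106 and 83 reads in the LacZ libraries, 47, 42 and 42 in the Nrf1 libraries, and 113, 101 and 91 in the Nrf2 libraries. As normalized counts these were 82.4, 119 and 98.4 with LacZ, 44.5, 41.0 and 48.0 with Nrf1, and 93.6, 88.4 and 88.7 with Nrf2. The Nrf1 libraries were the lowest by a wide gap, and the Nrf2 libraries lay within the range of the LacZ libraries. *Abcb1a* fell with Nrf1 (log2 fold change -1.14, SE 0.16, limma adjusted p = 1.41e-05) and was higher with Nrf2 than with Nrf1 (1.00, SE 0.14, limma adjusted p = 5.88e-06). For Nrf2 over LacZ the log2 fold change was -0.13 (95% confidence interval -0.43 to 0.17, limma adjusted p = 0.454), which did not pass the test, and it ranged from -0.26 without LacZ library a to 0.00 without LacZ library b.

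Because the sequences of *Abcb1a* and *Abcb1b* are closely related, reads that fit both could have been dropped or split in the authors' counting, and the values of both genes are uncertain to that extent. The reads of *Abcb1a* were 4.11%, 5.93% and 4.98% of those of *Abcb1b* in the LacZ libraries, 4.0%, 4.02% and 4.68% in the Nrf1 libraries, and 7.75%, 7.37% and 6.94% in the Nrf2 libraries. The Nrf2 libraries thus had the highest ratio, and LacZ and Nrf1 overlapped. An exact two-sided permutation test gave p = 0.1 for Nrf2 against LacZ and for Nrf2 against Nrf1, the smallest value that 3 against 3 libraries allow, and p = 0.2 for Nrf1 against LacZ. In the mouse assembly GRCm38.p6, *Abcb1a*, *Abcb1b* and *Abcb4* are neighbours in that order. *Abcb4*, the gene of a phospholipid transporter, gave a log2 fold change of -0.45 with Nrf1 (SE 0.08, limma adjusted p = 0.000137) and -0.05 with Nrf2 (SE 0.07, limma adjusted p = 0.596), both under the fold cutoff; it was singled out after its values were seen.

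*Abcg2* encodes an exporter of drugs, urate and porphyrins. Its normalized counts were 85.4, 89.8 and 104 in the LacZ libraries, 72.9, 78.0 and 98.3 in the Nrf1 libraries, and 91.1, 85.7 and 92.6 in the Nrf2 libraries. All groups overlapped. The log2 fold change was -0.17 for Nrf1 over LacZ (95% confidence interval -0.48 to 0.14, limma adjusted p = 0.305) and -0.05 for Nrf2 over LacZ (-0.31 to 0.22, limma adjusted p = 0.767). For Nrf2 over Nrf1 it was 0.12 (-0.16 to 0.39, limma adjusted p = 0.46). These values depended on single libraries: leaving out 1 at a time gave -0.30 to -0.09 for Nrf1 over LacZ, -0.11 to 0.04 for Nrf2 over LacZ and 0.03 to 0.24 for Nrf2 over Nrf1. No difference was detected, and the intervals leave room for modest ones.

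*Abcb6* encodes a transporter associated with porphyrins, heme precursors, in the membranes of the cell surface and of organelles. It had 653, 611 and 623 normalized counts in the LacZ libraries, 1080.4, 1051 and 1031 in the Nrf1 libraries, and 937, 964 and 938 in the Nrf2 libraries. The groups were fully separated, with Nrf1 highest. *Abcb6* rose 1.67-fold with Nrf1 (log2 fold change 0.74, SE 0.05, limma adjusted p = 2.1e-09). With Nrf2 it rose 1.51-fold (log2 fold change 0.59, SE 0.05, limma adjusted p = 1.36e-07). This was so close to the cutoff of 0.585 that the call was lost with other scalings or without single libraries. The value was 0.5700 without LacZ library b, 0.5835 without LacZ library c and 0.5767 without Nrf2 library b. Nrf2 over Nrf1 gave -0.16 (SE 0.04, limma adjusted p = 0.00178), under the fold cutoff.

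**Figure D2:**
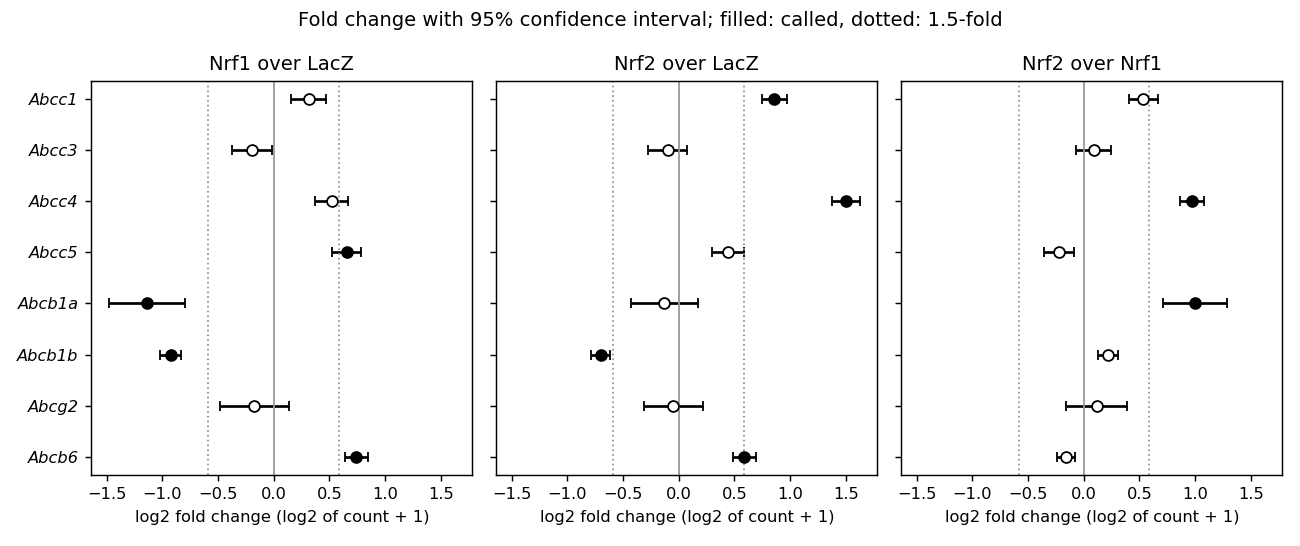
Log2 fold change (x axis, on the scale of log2 of the normalized count plus 1) of the 8 transporters in each comparison, with 95% confidence intervals from limma. Filled points passed both cutoffs, dotted lines mark the 1.5-fold cutoff, and *Abcc4* lay farthest to the right with Nrf2 over LacZ, at 1.5.

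Set against all genes, 2 of the 8 transporters rose with Nrf1 (*Abcc5* and *Abcb6*) and 2 fell (*Abcb1a* and *Abcb1b*), where 11.3% of the 11433 genes tested rose and 17.0% fell. With Nrf2, 3 of 8 rose (*Abcc1*, *Abcc4* and *Abcb6*) and 1 fell (*Abcb1b*), where 9.25% of 11609 genes rose and 9.58% fell. In the direct comparison 2 of 8 were higher with Nrf2 (*Abcc4* and *Abcb1a*) and 0 were lower, where 11.2% of 11493 genes were higher and 4.64% lower. By limma's adjusted p alone, 4 of 8 were higher and 2 lower with Nrf1 than with LacZ, where 34.3% and 32.5% of all genes were. With Nrf2 the same rule gave 4 higher and 1 lower, where 28.7% and 26.0% of all genes were. For Nrf2 over Nrf1 it gave 4 higher and 2 lower, where 28.9% and 29.8% of all genes were. The median log2 fold change of the transporters was 0.07 with Nrf1, 0.20 with Nrf2 and 0.17 for Nrf2 over Nrf1, and that of all genes tested was 0.00 in each. The comparisons with LacZ share the LacZ libraries and are not independent of each other. The transporters were chosen with earlier results of these data known, so these counts are a description only. All 8 transporters passed the filter on low values in every comparison.

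Of the other ABC transporters, 41 genes, 29 to 31 were tested in each comparison. With Nrf1, 1 of 29 rose and 6 fell, where 11.3% and 17.0% of all genes did, and with Nrf2, 2 of 31 rose and 4 fell, where 9.25% and 9.58% of all genes did. *Abca2*, the gene of a lipid transporter of lysosomes and endosomes, rose with Nrf1 (log2 fold change 1.83, SE 0.05, limma adjusted p = 9.68e-14), and Nrf2 over LacZ gave 0.10 (SE 0.07, limma adjusted p = 0.205). *Tap1*, which carries peptides for presentation on MHC class I, fell with Nrf1 (-1.73, SE 0.06, limma adjusted p = 1.01e-12) and with Nrf2 (-1.07, SE 0.06, limma adjusted p = 2.14e-09). Singled out after their values were seen, *Abcc6* and *Abca17* were the genes that rose with Nrf2, at Nrf2 means of 10.5 and 20.3 (log2 fold changes 2.60 and 1.73). With LacZ means of 1.05 and 5.89 they passed the filter on low values only through the Nrf2 group, so they had to be higher there. The same holds for any gene that entered a list's counts through 1 group alone, and these counts are a description. In the direct comparison, Nrf2 over Nrf1, 6 were higher and 2 lower of 30, where 11.2% and 4.64% of all genes were, *Abca2* among the lower (-1.73, SE 0.05, limma adjusted p = 8.54e-15).

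Genes of glutathione metabolism, *Slc7a11*, *Gsr* and *Ggt1* among them, and of enzymes that attach glutathione or other groups to substrates were counted in the same way. With Nrf1, 13 of 28 tested rose and 3 fell, where 11.3% and 17.0% of all genes did, and with Nrf2, 18 of 29 rose and 0 fell, where 9.25% and 9.58% of all genes did. The microsomal glutathione transferase *Mgst1* rose with Nrf1 (log2 fold change 2.51, SE 0.06, limma adjusted p = 1.34e-14), and *Gsta1*, a cytosolic glutathione transferase, fell (-0.79, SE 0.12, limma adjusted p = 2.89e-05). With Nrf2, *Gsta1* rose (2.66, SE 0.07, limma adjusted p = 6.85e-13), as did *Gstm1* (2.70, SE 0.10, limma adjusted p = 3.11e-11). *Mgst1* rose with Nrf2 as well (2.30, SE 0.06, limma adjusted p = 6.85e-13), and *Gstm1* with Nrf1 (1.21, SE 0.12, limma adjusted p = 2.83e-07). *Gsta2* and *Gsta3* passed the filter on low values only through Nrf2. Their means were 1.79 and 3.41 with LacZ and 58.1 and 43.2 with Nrf2. Nrf2 over Nrf1 gave 12 higher and 2 lower of 30, where 11.2% and 4.64% of all genes were, with *Slc7a11* among the higher, the cystine importer that supplies glutathione synthesis (2.39, SE 0.06, limma adjusted p = 6.11e-16).

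**Figure D3:**
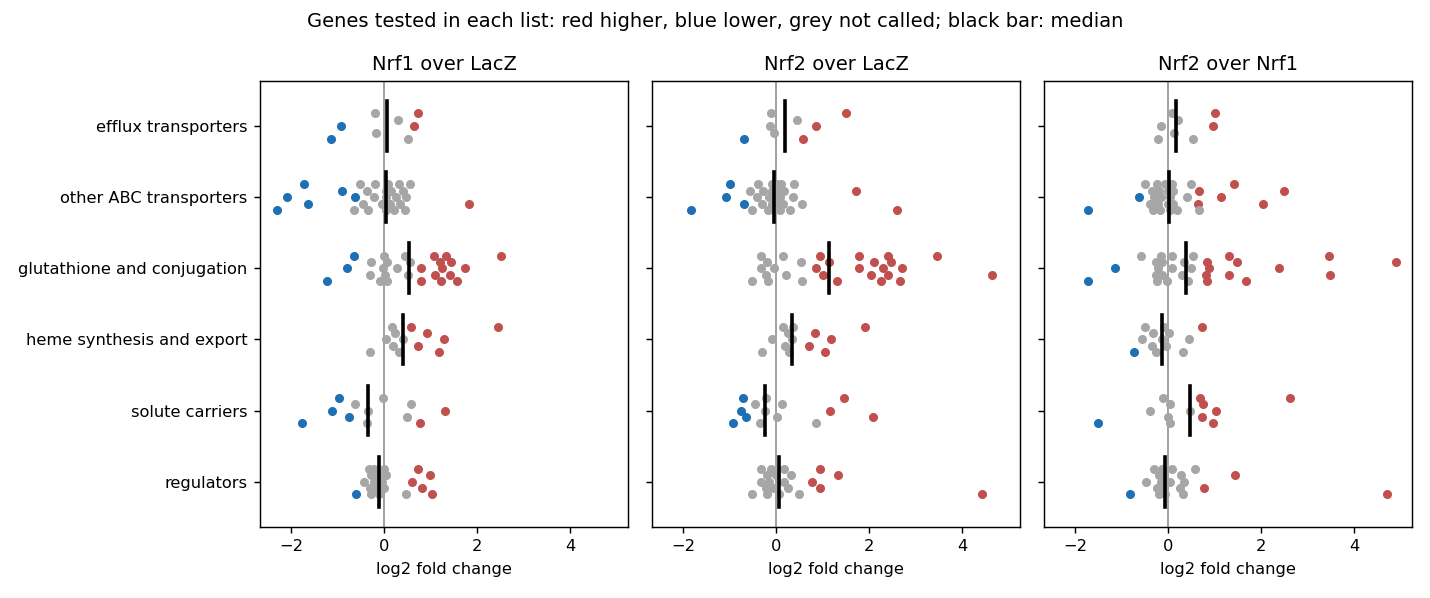
Log2 fold change (x axis) of each gene tested in 6 lists, with dots for genes, red for higher, blue for lower and grey for not called, and black bars for the median of the list. The glutathione and conjugation genes had a median of 1.15 with Nrf2 over LacZ, and the efflux transporters 0.20.

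In bulk RNA, fewer cells of a type and less RNA per cell cannot be told apart, so markers of the cell types that NRVM cultures can hold were measured beside the transporters. The 10 fibroblast markers, led by *Col1a1*, summed to 123618, 129726 and 124792 normalized counts in the LacZ libraries, 32678, 34107 and 31619 in the Nrf1 libraries, and 69645, 64437 and 67105 in the Nrf2 libraries. The endothelial markers, led by *Eng*, summed to 4331, 4342 and 4399.8 with LacZ, 2645, 2689 and 2642 with Nrf1, and 2671, 2422 and 2807 with Nrf2. The leukocyte markers, of which *Lyz2* had the most counts with LacZ and *Csf1r* with Nrf1 and Nrf2, summed to 1801, 2663 and 1938 with LacZ, 1037, 1064 and 1063 with Nrf1, and 962, 1086 and 1061 with Nrf2. These sums were lower with either factor in every library, as was *Abcb1b*.

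Of the fibroblast markers, 10 of 10 fell with Nrf1 and 8 of 10 with Nrf2, where 17.0% and 9.58% of all genes fell and 11.3% and 9.25% rose. Of the leukocyte markers 9 of 10 fell with each. *Csf1r*, averaging 281 normalized counts with LacZ, 380 with Nrf1 and 298 with Nrf2, did not. By limma's adjusted p alone, 1 leukocyte marker was higher and 9 lower with Nrf1, where 34.3% and 32.5% of all genes were. Of 9 endothelial markers tested 6 fell with Nrf1 and 5 with Nrf2, where 1 rose. *Cldn5* stayed between 0 and 5.61 normalized counts, and no marker was at 0 in all libraries. The cardiomyocyte markers, of which *Nppa* had the most counts with LacZ and *Actc1* with Nrf1 and Nrf2, summed to 192636, 164184 and 177895 with LacZ, 160889, 160031 and 162369 with Nrf1, and 184913, 188053 and 186340.0 with Nrf2, so the Nrf1 libraries were the lowest. Of these 10, 2 rose (*Actc1* among them) and 4 fell (*Nppa* among them) with Nrf1, and 0 passed in either direction with Nrf2. By limma's adjusted p alone, 2 were higher and 7 lower with Nrf1, where 34.3% and 32.5% of all genes were, and 5 higher and 3 lower with Nrf2, where 28.7% and 26.0% were. The pericyte and smooth muscle markers, led by *Acta2*, summed to 43693, 37579 and 40537 with LacZ, 63087, 62909 and 62278 with Nrf1, and 50916, 51870 and 54247 with Nrf2. By gene, 2 of 10 rose with Nrf1 (*Acta2* and *Tagln*, the former with the most counts) and 4 fell (*Pdgfrb*, *Rgs5*, *Notch3* and *Myh11*). The median log2 fold change was -0.64 with Nrf1, and with Nrf2 1 rose and 1 fell. *Rgs5* averaged 24.2 with LacZ and 6.54 with Nrf1, so it passed the filter on low values only through LacZ. In the direct comparison, Nrf2 over Nrf1, 7 of 10 fibroblast markers were higher and 1 lower, and 4 of 10 cardiomyocyte markers were higher and 0 lower. Of 9 pericyte and smooth muscle markers tested 5 were higher and 0 lower, and of 9 endothelial markers 1 was higher and 0 lower. Of 10 leukocyte markers 2 were higher and 1 lower. Of all genes, 11.2% were higher and 4.64% lower. The part of these cell types in the values of the transporters was not tested.

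**Figure D4:**
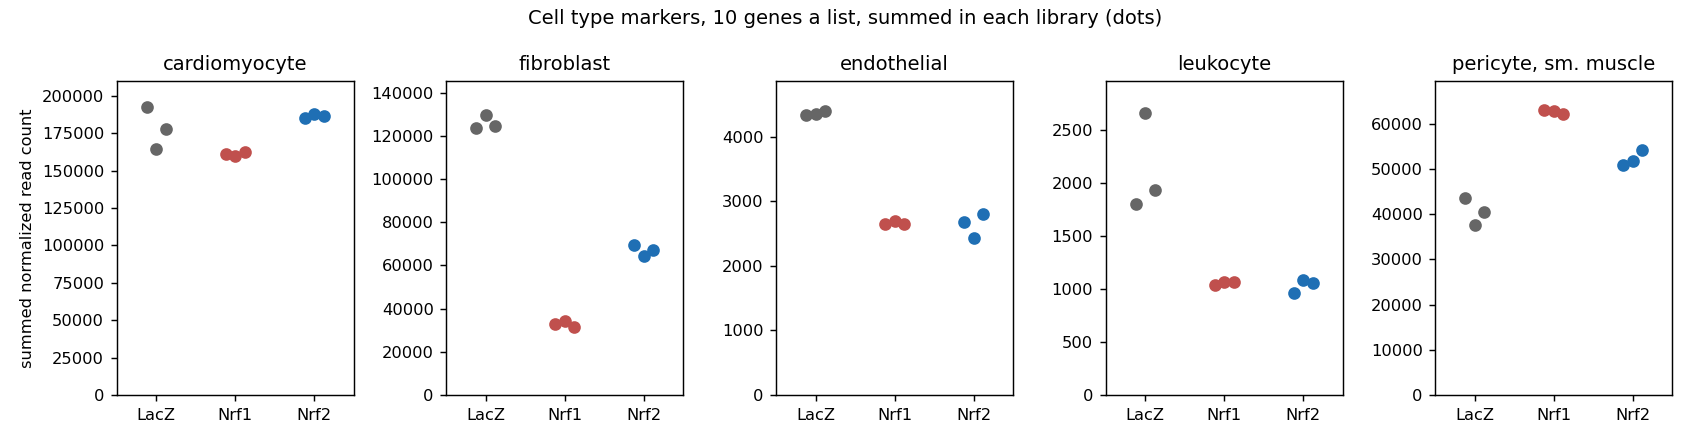
Summed normalized read counts (y axis, from 0) of the 10 markers of each cell type in each library, with dots for libraries. Fibroblast markers summed to 123618 to 129726 in the LacZ libraries and 31619 to 34107 in the Nrf1 libraries.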

How the data were processed

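RNA from NRVMs was measured in 9 libraries, 3 each for LacZ, Nrf1 and Nrf2. The authors used FastQC 0.11.4 for quality control, HISAT2 2.0.4 for alignment of stranded, single-end reads to Rnor 6.0, SAMtools 0.1.18 for the removal of duplicates, featureCounts 1.6.0 for counts per gene and edgeR 3.20.5 for comparisons, as the paper's methods and the submitters' processing notes state. The signal in the 3 tables the authors deposited is a group's average read count after division by size factors, which the authors set for each pair of groups. The tables also hold the authors' fold changes, log2 fold changes, p-values and adjusted p-values, which were not used. Other columns of single samples numbered 0.

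Each group stands in 2 tables with different size factors, so its means are 2 known sums of 3 whole numbers, and these were solved for the read counts. Of genes with a mean above 0 in both tables, 14448 of 14449 had a single solution in LacZ, 14245 of 14245 in Nrf1 and 14617 of 14617 in Nrf2, with means met within 5.01e-06. Of 1000 altered means per group, 0 had a solution. For the transporters in Nrf1 and Nrf2, counts solved from 1 table alone were the same in 16 of 16 cases. The LacZ counts were not checked in this way. The values of single libraries are thus reconstructed from means. Count models were not run.

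limma 3.58.1 (R 4.3.3; lmFit, eBayes with trend, two-sided) was run for each pair on log2 of the count over the authors' size factor plus 1, for genes that averaged 10 or more in a group of the pair, with Benjamini-Hochberg adjustment over all genes tested. Fold changes on this scale understate changes of low genes. Levels use median-of-ratios size factors over 9 libraries. Counts were solved with Python 3.11.15 and numpy 2.4.6, and plots were drawn with matplotlib 3.10.9. Replicates differed by more than sampling noise (chi-square per degree of freedom 1.49 to 5.00). The reconstruction was tested on simulated data for LacZ alone, where 14691 of 14691 genes were recovered right. The fit was tested on simulated data for each comparison, with 200 genes changed by a log2 fold change of 1. Of these, 197 were called in the right direction for Nrf1 over LacZ, 187 for Nrf2 over LacZ and 187 for Nrf2 over Nrf1.

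The members and lists were chosen with earlier results of these data known. All members were named, and of each other list up to 4 called genes that averaged 100 or more in a group of the pair could be named, the 2 largest rises and 2 largest falls. Genes outside this rule were also named, among them *Abcb4*, *Abcc6*, *Abca17*, *Nppa*, *Rgs5* and *Myh11*. Some genes named by the rule were also given in other comparisons. Alternatives were other pseudocounts, low-value filters, fold cutoffs, the ratio of the authors' means, scalings, 1 fit over 9 libraries, each library left out and, chosen after seeing the data, limma's voom weights. Promoter sequences were not used here, and an item of the lists is not reported here.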

Additional observations from a re-analysis of the deposited data

How the results depend on the processing

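No paired analysis was possible because the columns carry no replicate numbers and the reconstructed libraries cannot be tied to those of the samples. Under the alternatives, 403 log2 fold changes of single transporters were compared. Of these, 381 kept their direction and their call, 12 no longer passed, 8 passed newly and 2 changed sign. The 381 include values that were not called in the main fit, such as all those of *Abcc3*. With another fold cutoff or none the main fold changes were reused, so direction could not change there and calls changed by construction. Calls used both cutoffs together, except with no fold cutoff (adjusted p alone) and for the ratio of the authors' means (fold alone, no test). Neither value that changed sign was called: *Abcb1a* for Nrf2 over LacZ was 0.0044 without LacZ library b, and *Abcg2* was 0.0359 without LacZ library c (over all single libraries left out, -0.2604 to 0.0044 and -0.1078 to 0.0359). With a fold cutoff of 2, 1 transporter was called for Nrf1 over LacZ in place of 4, 1 for Nrf2 over LacZ in place of 4 and 1 for Nrf2 over Nrf1 in place of 2. With no fold cutoff 6 were called for Nrf2 over Nrf1, and with only genes that averaged 100 or more in a group 1 was, since *Abcb1a* was then not tested. For *Abcc3*, Nrf1 over LacZ, the adjusted p of 0.0514 became 0.0139 scaled by summed counts, 0.037 with 9 libraries in 1 fit, 0.0491 for genes averaging 100 or more and 0.036 without LacZ library a, with the fold always under the cutoff. *Abcb6* for Nrf2 over LacZ fell under the cutoff when re-centred on the median gene (0.57) and when scaled by summed counts (0.50). Leaving out each library gave 4 calls throughout for Nrf1 over LacZ, 3 to 4 for Nrf2 over LacZ and 2 to 3 for Nrf2 over Nrf1. These fits called 1263 to 1331 of all 11433 genes higher and 1856 to 1927 lower for Nrf1 over LacZ. For Nrf2 over LacZ they called 1001 to 1079 of 11609 higher and 1008 to 1125 lower. For Nrf2 over Nrf1 they called 1230 to 1297 of 11493 higher and 520 to 546 lower. With limma's voom weights, chosen after seeing the data, the calls were the same transporters in each comparison. Over all 11433 genes, Nrf1 over LacZ gave 1290 higher and 1943 lower, 469 and 1073 with a fold cutoff of 2, and 3927 and 3716 with none. For genes averaging 100 or more it gave 989 and 1018 of 8544. Nrf2 over LacZ gave 1074 and 1112, 531 and 455, and 3327 and 3020 of 11609, and 662 and 570 of 8655. Nrf2 over Nrf1 gave 1290 and 533, 652 and 136, and 3319 and 3426 of 11493, and 642 and 364 of 8639. Scaling by summed counts changed Nrf2 over LacZ to 869 higher and 1411 lower. *Abcb1a* and *Abcg2* had the fewest reads of the 8. Where the alternative's own construction does not show it, the cause was not tested.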

Other observations

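A list of genes of heme synthesis, transport and breakdown was counted because porphyrins are linked to *Abcb6*. With Nrf1, 6 of 13 tested rose and 0 fell, where 11.3% and 17.0% of all genes did, and with Nrf2, 5 of 13 rose and 0 fell, where 9.25% and 9.58% of all genes did. *Hmox1*, whose enzyme breaks heme down, rose with Nrf1 (log2 fold change 1.29, SE 0.04, limma adjusted p = 3.44e-13) and with Nrf2 (1.18, SE 0.04, limma adjusted p = 1.27e-11). *Blvrb*, a biliverdin reductase gene, rose by 2.46 with Nrf1 and 1.90 with Nrf2 on the log2 scale. *Blvra*, the other biliverdin reductase gene of the list, averaged 127 normalized counts with LacZ, 129 with Nrf1 and 162 with Nrf2. In the direct comparison 1 of 13 was higher with Nrf2, *Fech*, which inserts iron into protoporphyrin (0.72, SE 0.05, limma adjusted p = 4.48e-10), and 1 was lower, *Urod*, an enzyme of porphyrin synthesis (-0.73, SE 0.06, limma adjusted p = 3.48e-09), where 11.2% and 4.64% of all genes were.

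Among solute carriers for drugs and organic ions, 2 of 12 rose and 4 fell with Nrf1, 3 of 14 rose and 4 fell with Nrf2, and 6 of 13 were higher and 1 lower with Nrf2 than with Nrf1. Of all genes, 11.3% rose and 17.0% fell with Nrf1, and 9.25% and 9.58% with Nrf2. In the direct comparison 11.2% were higher and 4.64% lower, and these shares are also the background for the regulators of transporter genes. The counts of solute carriers are a description, since some passed the filter on low values through 1 group alone. *Slc22a4* averaged 5.11 with LacZ and 24.3 with Nrf2, and *Slc22a3* 1.03 with Nrf1 and 10.2 with Nrf2, so these could only be higher with Nrf2. *Slc47a2*, with 10.9 for LacZ and 6.51 for Nrf1, could only be lower with Nrf1. *Slc22a23* rose by 0.77 with Nrf1 and 1.46 with Nrf2 on the log2 scale, and *Slc29a3*, a nucleoside transporter of organelle membranes, fell (-0.74 and -0.70). Of 21 regulators tested, 5 rose and 1 fell with Nrf1, 5 rose and 0 fell with Nrf2, and 3 were higher and 1 lower in the direct comparison. The rises with Nrf2 include *Nfe2l2*, the gene delivered by the virus. *Keap1*, whose protein holds Nrf2 back, and the small Maf gene *Mafg* rose with Nrf1 (1.00 and 1.03) and with Nrf2 (0.77 and 0.94). *Maff*, another small Maf gene, was the regulator that fell with Nrf1 (-0.60, SE 0.09, limma adjusted p = 3.82e-05). *Bach1*, the gene of a repressor at antioxidant response elements, rose with Nrf2 over LacZ (1.32, SE 0.09, limma adjusted p = 1.36e-08).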
